A study of Solanum lycopersicum with 39 samples.

Results

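The CONSTANS-like B-box (BBX) genes *SlBBX1* to *SlBBX10* of tomato encode zinc-finger proteins that carry a B-box region and a CCT domain. They were chosen by name and gene ID, without use of any measured value, and make up 10 of the 34075 genes listed in each expression table. The study's family tree places *SlBBX1* to *SlBBX6* in structural group I and *SlBBX7* to *SlBBX10* in structural group II, which lacks the VP (valine–proline) motif of group I. The paper and the files do not pair these 10 names with IDs, so each name, and with it the structural group, rests on the list of IDs by which the genes were chosen. The IDs put *SlBBX1* (Solyc02g089520.2), *SlBBX2* (Solyc02g089500.4) and *SlBBX3* (Solyc02g089540.3) close together on chromosome 2. *SlBBX4* (Solyc08g006530.4) has an ID of chromosome 8, *SlBBX5* (Solyc12g096500.2) and *SlBBX7* (Solyc12g006240.2) have IDs of chromosome 12, *SlBBX6* (Solyc07g006630.4) and *SlBBX9* (Solyc07g045180.4) of chromosome 7, and *SlBBX8* (Solyc05g020020.4) and *SlBBX10* (Solyc05g046040.2) of chromosome 5. No gene ID matched the RefSeq table at hand, so no coordinates or sequences are given.

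CONSTANS, the founding member in Arabidopsis, promotes flowering in long days. Its transcript follows the circadian clock, its protein is stable in light and degraded in the dark, and the CCT domain brings it to the promoter of the florigen gene together with NF-Y proteins. B-box regions serve mainly as surfaces for contact between proteins, and several CONSTANS-like genes of Arabidopsis have transcripts that cycle over the day and act in light signalling rather than in flowering time. Cultivated tomato flowers largely without regard to day length, and the leaf is where CONSTANS acts in Arabidopsis.

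RNA-seq was available for leaves of the cultivar M82, in a heat series of 18 libraries and a drought series of 21 libraries, with 3 libraries in each group. All plants grew in climate chambers at 25 °C and 70% humidity, with 16 h of light and 8 h of dark, and the sample labels give an age of 38 days after sowing, while the methods of the paper give another age. In the heat series, plants in fully watered soil were kept at 42 °C and 90% humidity for 0 h (Heat-0h), 2 h (Heat-2h), 4 h (Heat-4h), 12 h (Heat-12h) or 24 h (Heat-24h), or were returned to the growth conditions for 1 day after the 24 h treatment (Heat-Recovery). In the drought series, the control (D-0d) was taken when the pots had lost part of their water, D-1d to D-5d were taken 1 to 5 days later, and D-Recovery was taken 1 day after re-watering. Temperature and humidity changed together under heat. The hour of harvest is not given in the sources used here, and untreated plants of the later time points were not among the groups. The length of a treatment and the time of day thus cannot be told apart at 2 h, 4 h and 12 h of heat. Heat-24h, Heat-Recovery and the later drought groups lie whole days from their baselines by label, but whether the hours of harvest matched is not stated. All libraries came from whole leaves, in which fewer cells of a type and less RNA per cell cannot be told apart.

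Expression is given as FPKM (a read abundance normalized to transcript length and library size), and the libraries of the 2 series were treated as normalized separately. Relative depth, read from the smallest steps of low genes, ranged from 0.938 to 1.35 in the heat series and from 0.741 to 1.46 in 20 drought libraries, while it was not settled for replicate 2 of D-3d. The 13 LHCb genes, which encode antenna proteins of green leaf cells, summed to 557 to 51287 FPKM over the heat libraries and to 770 to 21901 FPKM over the drought libraries. HSP17.6, a small heat-shock protein gene, had a mean of 767 FPKM in Heat-2h, against 0.690 FPKM in Heat-0h. NCED3, an enzyme gene of abscisic acid synthesis, averaged 278 FPKM in D-1d, against 97.1 FPKM in D-0d. Its mean was 13.6 FPKM in Heat-0h and 14.3 FPKM in D-Recovery, both below D-0d. Replicate 3 of Heat-12h had an LHCb sum of 686 FPKM, against 1316 and 1337 FPKM in its group, and the lowest *SlBBX1* to *SlBBX7* and *SlBBX9* values there. Replicate 3 of Heat-24h had 557 FPKM, against 2191 and 1658 FPKM, and 9 of its 13 LHCb genes reached 1 FPKM. Both were also left out together as an alternative. Replicate 3 of D-5d stood apart, with an LHCb sum of 3711 FPKM against 828 and 770 FPKM in the other D-5d libraries. Replicate 3 of D-2d had an LHCb sum of 6418 FPKM, against 2630 and 2801 FPKM in the other D-2d libraries. Replicate 3 of D-5d, replicate 3 of D-2d and replicates 1 and 3 of D-3d, 4 of the 21 drought libraries, correlated better with a library of another group than with any of their own.

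Differences were called where the adjusted p of limma was 0.05 or less and the log2 fold change of FPKM + 1 was at least 1 in size. Of the 10 members, 9, *SlBBX1* to *SlBBX9*, reached 1 FPKM in 3 or more libraries of both series and were tested. *SlBBX10* was listed at 0 in 38 of the 39 libraries and at 0.150 FPKM in replicate 1 of Heat-0h, and it was not tested. A value listed at 0 can be a failed estimate.

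The members differed widely in level in the baseline groups, of which D-0d was taken when the pots had already lost part of their water. *SlBBX5* was the highest member in both series, with 184 ± 26.8 FPKM in Heat-0h and 141 ± 27.2 FPKM in D-0d (mean ± SD, n = 3 each). *SlBBX4* followed, with 75.9 ± 6.38 FPKM in Heat-0h and 78.6 ± 6.79 FPKM in D-0d. *SlBBX5* made up 45.0% of the summed FPKM of the 10 members in Heat-0h and 37.9% in D-0d. *SlBBX1* and *SlBBX2* were low members of group I, with 7.66 ± 1.001 FPKM and 8.03 ± 2.27 FPKM in Heat-0h, and 11.9 ± 2.47 FPKM and 5.23 ± 0.431 FPKM in D-0d. These levels are per transcript length and can be set beside each other.

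The baselines of the 2 series were unlike for several members. *SlBBX3* averaged 56.7 ± 7.29 FPKM in Heat-0h and 6.34 ± 0.315 FPKM in D-0d. *SlBBX7* averaged 3.38 ± 0.670 FPKM in Heat-0h and 59.6 ± 3.71 FPKM in D-0d. *SlBBX9* averaged 3.73 ± 0.255 FPKM in Heat-0h and 12.9 ± 0.510 FPKM in D-0d. *SlBBX4* and *SlBBX5* lay much closer between the baselines than these members did. The soil water of the baselines differed, their hours of harvest are not given, and no test was run between the series.

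Under heat the group I genes ended lower. After 2 h, 3 of the 9 members tested were called and all were lower, where 5.56% of all genes tested were called, 3.49% lower and 2.07% higher. After 4 h, 4 of 9 were called lower, with 15.5% of all genes called, 13% lower and 2.47% higher. After 12 h, 5 members were lower and 1 was higher, with 24.2% of all genes called, 15.7% lower and 8.42% higher. After 24 h, all 6 group I members were lower and 1 of the 3 tested group II members was higher, with 42.4% of all genes called, 33.1% lower and 9.31% higher. Over the 9 members the median log2 fold change after 24 h was -1.53, beside -0.55 over all genes tested.

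The median log2 fold change of all genes tested against 0 h was -0.21 after 2 h, -0.43 after 4 h, -0.17 after 12 h, -0.55 after 24 h and -0.53 in Heat-Recovery, and the share of lower calls depended on this shift. When libraries were rescaled so that the median gene was level (median-ratio scaling), 2.28% of all genes tested were lower and 3.06% higher after 2 h, 4.04% lower and 5.22% higher after 4 h, 12.4% lower and 10.2% higher after 12 h, and 19.8% lower and 17.8% higher after 24 h. Of the members, 2 were then lower after 2 h, 3 after 4 h, 5 after 12 h and 5 after 24 h, and *SlBBX7* was higher after 12 h and 24 h.

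**Figure D1:**
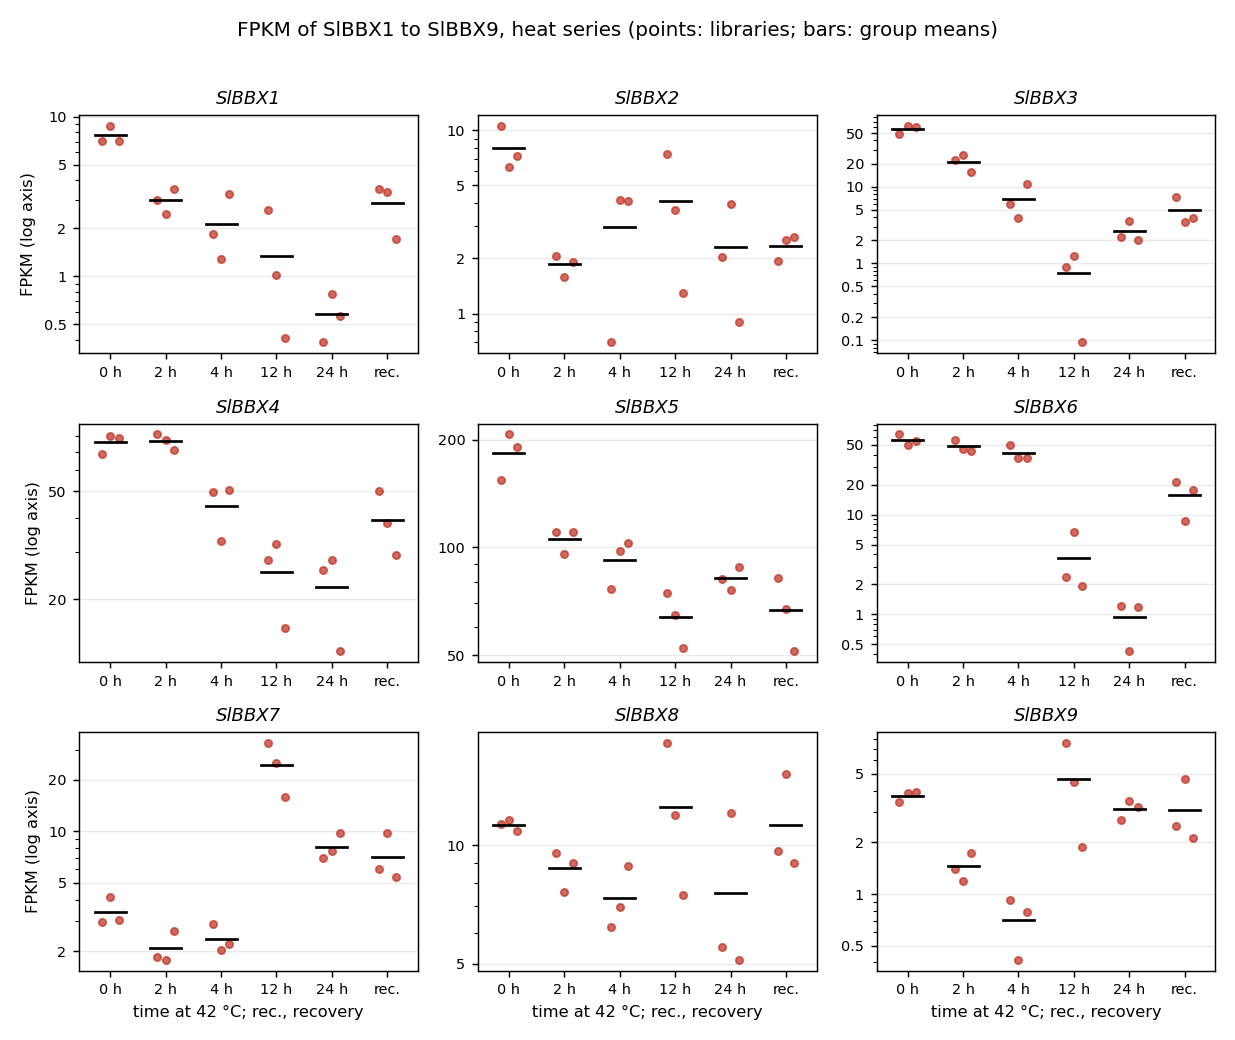
FPKM of *SlBBX1* to *SlBBX9* in each library of the heat series, on log axes whose range differs between panels, against the time at 42 °C and recovery. Points are libraries and bars are means of 3, and *SlBBX6* and *SlBBX7* moved in opposite directions between 4 h and 12 h.

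Of the 3 genes on chromosome 2, *SlBBX3* had the largest called fold changes from 4 h on. It had 48.5, 62.4 and 59.2 FPKM at 0 h, 22.3, 26.1 and 15.4 FPKM at 2 h and 5.86, 3.92 and 10.97 FPKM at 4 h. It then had 0.885, 1.25 and 0.0932 FPKM at 12 h and 2.24, 3.57 and 2.01 FPKM at 24 h. Every group under heat lay below 0 h without overlap, and the lowest value was replicate 3 of 12 h. Against 0 h the change was called after 2 h (log2 fold change -1.40 ± 0.35, adjusted p = 0.0241), with the SE after the ± sign here and in the values that follow. It was also called after 4 h (log2 fold change -2.96 ± 0.35, adjusted p = 6.11e-05), after 12 h (log2 fold change -5.10 ± 0.35, adjusted p = 6.35e-08) and after 24 h (log2 fold change -4.02 ± 0.35, adjusted p = 3.05e-07). Between neighbouring times *SlBBX3* was lower at 4 h than at 2 h (log2 fold change -1.56), where 1.72% of all genes were called, 1.59% lower and 0.137% higher, and lower at 12 h than at 4 h (-2.15), where 6.94% were called, 2.13% lower and 4.8% higher. It was higher at 24 h than at 12 h (1.09), where 21.8% were called, 17.4% lower and 4.4% higher. With median-ratio scaling the lower and higher shares were 0.996% and 0.581% for 4 h against 2 h, 4.6% and 2.23% for 12 h against 4 h, and 9.65% and 8.5% for 24 h against 12 h. The fall after 2 h was lost on leaving out any of 4 of the 6 libraries and with a pseudocount of 0.1, and the fall between 2 h and 4 h on leaving out any of 4 of 6. With only the groups compared in the fit, none of the 3 differences between neighbouring times was called. This last rise dropped below the threshold on leaving out replicate 3 of Heat-12h (0.78) or replicate 2 of Heat-24h (0.90).

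*SlBBX1*, close to *SlBBX3* by ID, also fell, from a lower starting level. It had 7.11, 8.82 and 7.07 FPKM at 0 h, 3.01, 2.45 and 3.54 FPKM at 2 h and 1.84, 1.29 and 3.295 FPKM at 4 h, followed by 2.63, 1.01 and 0.412 FPKM at 12 h and 0.385, 0.781 and 0.565 FPKM at 24 h. The group means stepped down at each time, although neighbouring groups from 2 h on overlapped. The change against 0 h was called after 4 h (log2 fold change -1.51 ± 0.32, adjusted p = 0.00377), 12 h (log2 fold change -1.99 ± 0.32, adjusted p = 1.85e-04) and 24 h (log2 fold change -2.46 ± 0.32, adjusted p = 1.11e-05). After 2 h it was log2 fold change -1.12 ± 0.32, adjusted p = 0.0437, and this call was lost when any single library of the 2 groups was left out.

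*SlBBX2* varied widely between the libraries of a group under heat. It had 10.6, 6.27 and 7.23 FPKM at 0 h and 2.07, 1.58 and 1.92 FPKM at 2 h. The values spread at 4 h (0.696, 4.14 and 4.11 FPKM), 12 h (7.38, 3.66 and 1.302 FPKM) and 24 h (2.04, 3.97 and 0.901 FPKM), and at 12 h they overlapped those of 0 h. It was called lower after 2 h (log2 fold change -1.64 ± 0.46, adjusted p = 0.0430), 4 h (log2 fold change -1.32 ± 0.46, adjusted p = 0.0455) and 24 h (log2 fold change -1.53 ± 0.46, adjusted p = 0.00991), and was not called after 12 h. The 2 h call was lost on leaving out any library of the groups compared, the 4 h call on leaving out any of 5 of the 6, and the 24 h call on leaving out replicate 3 of Heat-24h (log2 fold change -1.19, adjusted p of limma 0.0574). *SlBBX1*, *SlBBX2* and *SlBBX3* lie side by side by ID, and reads that near-identical copies share may have been split between them, so the values of each are uncertain to that extent.

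*SlBBX4* and *SlBBX5*, the most abundant members, were called lower from 12 h on. *SlBBX4* had 68.6, 80.3 and 78.8 FPKM at 0 h and 81.2, 77.3 and 71.03 FPKM at 2 h, and these groups overlapped. It had 49.8, 32.7 and 50.5 FPKM at 4 h, 28.02, 31.9 and 15.6 FPKM at 12 h and 25.7, 27.9 and 12.9 FPKM at 24 h, with the last 2 called (log2 fold change -1.61 ± 0.30, adjusted p = 7.36e-04 for 12 h, and log2 fold change -1.80 ± 0.30, adjusted p = 1.24e-04 for 24 h). *SlBBX5* had 154, 207 and 191 FPKM at 0 h, 111, 96.1 and 110.3 FPKM at 2 h and 76.4, 97.6 and 103 FPKM at 4 h. Short of the fold threshold, it was already below 0 h without overlap after 2 h (log2 fold change -0.79 ± 0.21, adjusted p = 0.0331) and 4 h (-0.99 ± 0.21, adjusted p = 0.0040). The 4 h value passed both thresholds without replicate 1 of Heat-0h (-1.11) or replicate 2 (-1.03) or 3 (-1.07) of Heat-4h, and was -0.48 with median-ratio scaling. It had 74.8, 64.9 and 52.4 FPKM at 12 h and 81.7, 75.99 and 87.97 FPKM at 24 h, all below every 0 h library. *SlBBX5* was called after 12 h (log2 fold change -1.51 ± 0.21, adjusted p = 5.56e-05) and 24 h (log2 fold change -1.15 ± 0.21, adjusted p = 2.44e-04), and its log2 fold change after 24 h was -0.49, not called, with median-ratio scaling. As a share of the summed FPKM of the members, *SlBBX5* was at 63.5 ± 7.6% in Heat-24h, against 45.0 ± 3.1% in Heat-0h (SD, n = 3).

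*SlBBX6* showed a late and steep fall. It had 63.9, 49.9 and 54.9 FPKM at 0 h, 55.8, 45.5 and 43.7 FPKM at 2 h and 49.5, 37.2 and 37.3 FPKM at 4 h, groups that overlapped with their neighbours and gave no call. It then had 2.38, 6.64 and 1.92 FPKM at 12 h and 1.21, 0.426 and 1.18 FPKM at 24 h. The change against 0 h was called after 12 h (log2 fold change -3.75 ± 0.35, adjusted p = 1.13e-06) and after 24 h (log2 fold change -4.90 ± 0.35, adjusted p = 5.695e-08), the largest of the members at 24 h. *SlBBX6* was also lower at 12 h than at 4 h (log2 fold change -3.31 ± 0.35, adjusted p = 2.38e-05) and lower at 24 h than at 12 h (log2 fold change -1.15 ± 0.35, adjusted p = 0.0192). The last call was lost with only these groups in the fit, with median-ratio scaling (-0.83), and on leaving out replicate 2 of Heat-12h (-0.72) or of Heat-24h (-0.94).

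Light-harvesting antenna genes, 22 of which the study names by ID, were called mainly from 12 h on, as were *SlBBX4* to *SlBBX7*. After 2 h 0 of the 22 were called, 1 was lower after 4 h, and all 22 were lower after 12 h and after 24 h, with median log2 fold changes of -5.65 and -6.64. Their median was 0.63 after 2 h and -0.68 after 4 h, beside -0.22 and -0.44 for *SlBBX6*. Between 12 h and 24 h, where *SlBBX6* was called lower, 3 of the 22 were lower and 1 was higher. The most abundant of them, LHCa3 (Solyc03g005760.1), had 535 ± 133 FPKM in Heat-12h and 237 ± 262 FPKM in Heat-24h, against 4955 ± 769 FPKM in Heat-0h (SD, n = 3 each). Their part in the fall of *SlBBX6* was not tested.

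Of group II, *SlBBX7* rose. It had 2.98, 4.16 and 3.02 FPKM at 0 h, 1.84, 1.78 and 2.603 FPKM at 2 h and 2.86, 2.03 and 2.19 FPKM at 4 h. It then had 32.7, 25.02 and 15.8 FPKM at 12 h and 6.98, 7.68 and 9.799 FPKM at 24 h. All 12 h libraries were above all others of the series. The change against 0 h was called after 12 h (log2 fold change 2.50 ± 0.27, adjusted p = 4.499e-06) and after 24 h (log2 fold change 1.06 ± 0.27, adjusted p = 0.00301). *SlBBX7* was higher at 12 h than at 4 h (log2 fold change 2.88 ± 0.27, adjusted p = 9.05e-06) and lower at 24 h than at 12 h (log2 fold change -1.44 ± 0.27, adjusted p = 0.00112). The 24 h call against 0 h was near the fold threshold, and it did not hold on leaving out replicate 3 of Heat-24h (0.94) or replicate 1 of Heat-0h (0.996), and the difference between 24 h and 12 h was just short of the threshold with median-ratio scaling (-0.997).

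*SlBBX9* was lower at 4 h and higher again at 12 h. It had 3.44, 3.85 and 3.902 FPKM at 0 h, 1.41, 1.198 and 1.74 FPKM at 2 h and 0.929, 0.414 and 0.781 FPKM at 4 h, followed by 7.55, 4.499 and 1.87 FPKM at 12 h and 2.696, 3.48 and 3.202 FPKM at 24 h. It was lower after 4 h than at 0 h (log2 fold change -1.48 ± 0.32, adjusted p = 0.00418) and higher at 12 h than at 4 h (log2 fold change 1.60 ± 0.32, adjusted p = 0.00449). The second call did not hold with only these groups in the fit. The 12 h libraries were widely spread and overlapped those of 0 h. *SlBBX8* was not called in any of the 16 comparisons, and its libraries ranged from 5.11 to 18.2 FPKM over the heat series, both ends coming from the late heat groups, Heat-24h and Heat-12h.

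After 1 day back in growth conditions, 5 of the 9 members were still lower than at 0 h, all in group I, where 24.6% of all genes tested were called, 23.3% lower and 1.23% higher. *SlBBX3* had 7.42, 3.51 and 3.87 FPKM in Heat-Recovery, against 48.5, 62.4 and 59.2 FPKM in Heat-0h (log2 fold change -3.33 ± 0.35, adjusted p = 2.49e-05). *SlBBX6* had 21.1, 8.58 and 17.8 FPKM, against 63.9, 49.9 and 54.9 FPKM in Heat-0h (log2 fold change -1.85 ± 0.35, adjusted p = 9.83e-04). No recovery library of either gene reached the lowest 0 h library. *SlBBX1* (-1.19), *SlBBX2* (-1.41) and *SlBBX5* (-1.46) were also lower on the log2 scale. *SlBBX4* was just short of the fold threshold, at 39.2 FPKM against 75.9 FPKM in Heat-0h, without overlap (log2 fold change -0.97 ± 0.30, adjusted p = 0.0201). It passed both thresholds without replicate 1 of Heat-0h (-1.04) or of Heat-Recovery (-1.16), and was at -0.31 with median-ratio scaling. With median-ratio scaling, under which 7.74% of all genes were lower and 6.01% higher, *SlBBX1* (-0.65), *SlBBX2* (-0.86) and *SlBBX5* (-0.80) were no longer called, while *SlBBX7* became higher (1.39). *SlBBX7* had 6.01, 9.796 and 5.43 FPKM in Heat-Recovery, against 2.98, 4.16 and 3.02 FPKM in Heat-0h (log2 fold change 0.85 ± 0.27, adjusted p = 0.0196, below the fold threshold without rescaling). *SlBBX1* was also short of the threshold without replicate 3 of Heat-Recovery (-0.96), and *SlBBX2* was not called when any of 5 libraries was left out.

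Set against the end of the heat treatment, 2 members had risen in Heat-Recovery, where 32.4% of all genes were called, 16% higher and 16.4% lower. *SlBBX6* was higher in Heat-Recovery than in Heat-24h (log2 fold change 3.06 ± 0.35, adjusted p = 6.75e-06), and so was *SlBBX1* (log2 fold change 1.27 ± 0.32, adjusted p = 0.00397), with 3.53, 3.37 and 1.72 FPKM in Heat-Recovery, against 0.385, 0.781 and 0.565 FPKM in Heat-24h. Of the antenna genes, 21 of 22 were higher in Heat-Recovery than in Heat-24h, and 12 of 22 were still lower than in Heat-0h. *SlBBX3* was not called in this comparison, with values that lay above those of Heat-24h in 2 of 3 libraries and overlapped them in the other.

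Under drought, 3 genes of group I gave all calls of D-1d to D-5d but 1. After 1 day 1 of 9 members was called (15.1% of all genes tested), after 2 days 1 (23.9%), after 3 days 3 (27.7%), after 4 days 4 (29.8%) and after 5 days 3 (31.2%), with the share of all genes called in brackets. The members called were *SlBBX1*, *SlBBX3* and *SlBBX6*, all lower, and *SlBBX9*, higher after 4 days. With 9 members tested these counts lie near the shares of all genes, so they are no result about the members as a set. They also depend on the fold threshold. With no minimum fold 8 of 9 members were called after 5 days of drought, where 13398 of 19963 genes were. After 24 h of heat 7 of 9 were called in that setting, where 10999 of 18923 genes were. By direction, 8.27% of all genes were lower after 1 day, 12.9% after 2 days, 14.8% after 3 days, 15.2% after 4 days and 17.7% after 5 days, and 6.79%, 11%, 12.9%, 14.6% and 13.5% were higher on the same days. The median log2 fold change of all genes tested lay between 0.07 after 1 day and 0.23 after 4 days. With median-ratio scaling 16.1% were lower and 7.98% higher after 2 days, against 12.9% and 11% without it, 17.9% lower and 9.22% higher after 3 days, against 14.8% and 12.9%, and 19% lower and 9.42% higher after 4 days, against 15.2% and 14.6%.

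**Figure D2:**
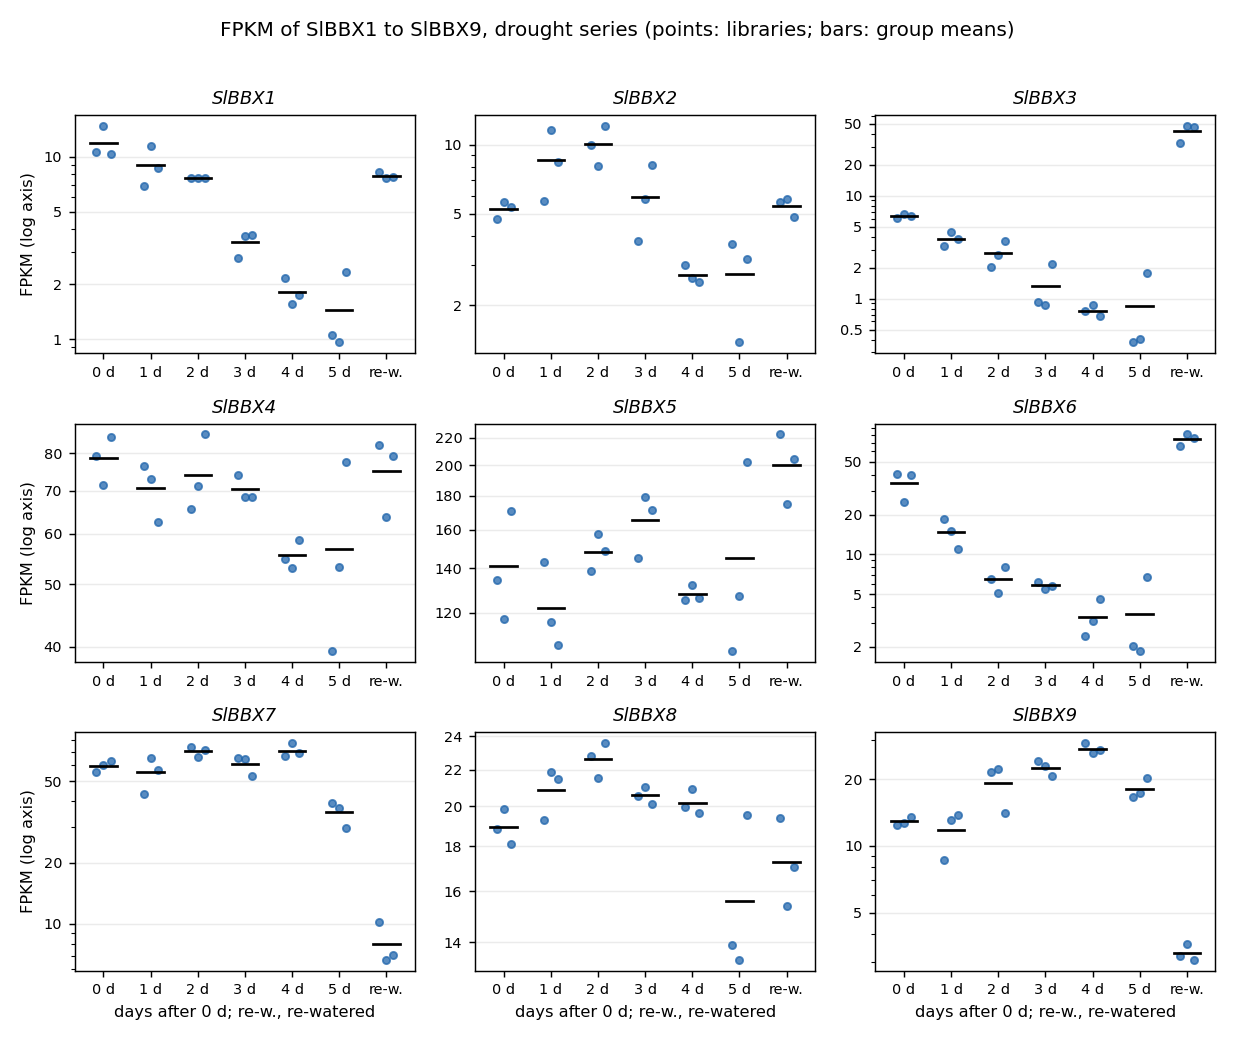
FPKM of *SlBBX1* to *SlBBX9* in each library of the drought series, on log axes whose range differs between panels, against days after D-0d and after re-watering. Points are libraries and bars are means of 3, and after re-watering *SlBBX3* and *SlBBX6* lay above, and *SlBBX7* and *SlBBX9* below, every other group.

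*SlBBX6* was the first member to be called and was called lower at all 5 time points. It had 40.2, 24.8 and 39.5 FPKM at D-0d, 18.5, 15.1 and 10.9 FPKM at D-1d and 6.53, 5.05 and 7.99 FPKM at D-2d. It had 6.18, 5.44 and 5.799 FPKM at D-3d, 2.42, 3.12 and 4.56 FPKM at D-4d and 2.01, 1.85 and 6.74 FPKM at D-5d. Neighbouring groups did not overlap, except D-2d with D-3d and D-4d with D-5d. The log2 fold change against D-0d was called after 1 day (log2 fold change -1.17 ± 0.31, adjusted p = 0.00521), was -2.24 after 2 days, -2.37 after 3 days and -3.03 after 4 days, and was again called after 5 days (log2 fold change -3.11 ± 0.31, adjusted p = 1.404e-07). The call after 1 day was lost without replicate 3 of D-1d (-0.98). Without the D-5d library that stood apart, the change after 5 days was -3.58.

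*SlBBX1* and *SlBBX3* were called from the third day, after smaller falls. All *SlBBX3* libraries lay below D-0d after 1 day (log2 fold change -0.61), and all *SlBBX1* libraries after 2 days (log2 fold change -0.56). *SlBBX1* had 10.6, 14.8 and 10.4 FPKM at D-0d, 6.91, 11.5 and 8.68 FPKM at D-1d and 7.64, 7.61 and 7.68 FPKM at D-2d, and then 2.79, 3.68 and 3.73 FPKM at D-3d, 2.16, 1.55 and 1.75 FPKM at D-4d and 1.05, 0.959 and 2.34 FPKM at D-5d. Its fall was called after 3 days (log2 fold change -1.54 ± 0.20, adjusted p = 3.19e-06), 4 days (log2 fold change -2.19 ± 0.20, adjusted p = 5.72e-08) and 5 days (log2 fold change -2.43 ± 0.20, adjusted p = 1.32e-08). From D-3d to D-5d no library reached the lowest of D-0d, D-1d or D-2d. *SlBBX3* had 6.03, 6.66 and 6.34 FPKM at D-0d, 3.24, 4.47 and 3.78 FPKM at D-1d, 2.04, 2.63 and 3.62 FPKM at D-2d and 0.926, 0.863 and 2.16 FPKM at D-3d. It had 0.760, 0.862 and 0.671 FPKM at D-4d and 0.375, 0.406 and 1.79 FPKM at D-5d, so that most late libraries lay under 1 FPKM, where FPKM + 1 understates a fold change. It was called after 3 days (log2 fold change -1.71 ± 0.25, adjusted p = 1.76e-05), 4 days (log2 fold change -2.06 ± 0.25, adjusted p = 2.06e-06) and 5 days (log2 fold change -2.07 ± 0.25, adjusted p = 1.76e-06), and after 2 days it was just short of the fold threshold (-0.99), which it passed with median-ratio scaling (-1.15), with a pseudocount of 0.1 (-1.21), without replicate 3 of D-2d (-1.14), which stood apart, and without replicate 1 of D-0d (-1.02).

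*SlBBX2*, *SlBBX4* and *SlBBX5* were not called at any drought point, although some values passed the threshold of the adjusted p and not that of the fold. *SlBBX2*, the neighbour of *SlBBX1* and *SlBBX3* by ID, had 4.76, 5.601 and 5.34 FPKM at D-0d, 10.01, 8.096 and 12.1 FPKM at D-2d and 2.98, 2.63 and 2.53 FPKM at D-4d, with its highest group mean at D-2d. Its log2 fold change was 0.81 after 2 days (adjusted p of limma 0.0125), -0.75 after 4 days (0.0178) and -0.79 after 5 days (0.0126). None of these groups overlapped D-0d. With a pseudocount of 0.1 the fall after 5 days was called (-1.02), and with median-ratio scaling the adjusted p after 2 days was 0.0512. *SlBBX4* ranged from 39.4 to 85.6 FPKM over the whole series, and both its lowest and one of its higher libraries (77.6 FPKM) belonged to D-5d. Its log2 fold change was -0.49 after 4 days (adjusted p of limma 0.0207), without overlap with D-0d, and -0.51 after 5 days (0.0167), with overlap. *SlBBX5* was the highest member throughout, with group means from 122 ± 18.5 FPKM at D-1d to 200.4 ± 24.1 FPKM in D-Recovery (SD, n = 3), and neighbouring groups in the order of its means all overlapped.

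*SlBBX9* had its highest levels late in the drought. It had 12.5, 12.7 and 13.5 FPKM at D-0d, 8.61, 13.1 and 13.8 FPKM at D-1d and 21.5, 22.3 and 14.1 FPKM at D-2d, and then 24.1, 22.9 and 20.7 FPKM at D-3d, 29.1, 26.2 and 27.02 FPKM at D-4d and 16.6, 17.3 and 20.2 FPKM at D-5d. All libraries of D-2d to D-5d were above all of D-0d, and the change was called only after 4 days (log2 fold change 1.03 ± 0.16, adjusted p = 2.87e-05), where 14.6% of all genes were higher. That call was lost with median-ratio scaling (0.77) and without replicate 1 of D-4d (0.99). *SlBBX7* stayed between 43.5 and 77 FPKM up to D-4d and had 39.03, 37.2 and 29.7 FPKM in D-5d, against 55.6, 60.3 and 62.9 FPKM in D-0d (log2 fold change -0.75 ± 0.16, adjusted p = 4.51e-04, below the fold threshold). *SlBBX8* ranged from 13.4 to 23.6 FPKM over the 21 drought libraries.

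Most antenna genes fell in the same days as *SlBBX6*. Of the 22, 13 were lower after 1 day, 21 after 2 days and after 3 days, and all 22 after 4 days and 5 days, with a median log2 fold change of -6.52 after 4 days. The other 9 were not called after 1 day. The most abundant of them in this series, LHCb1 (Solyc02g071030.2), had a higher mean in D-1d (5277 ± 874 FPKM) than in D-0d (3678 ± 498 FPKM). It had 931 ± 132 FPKM in D-4d (SD, n = 3 each). In D-5d, replicate 3 had the highest *SlBBX1*, *SlBBX3*, *SlBBX4*, *SlBBX5*, *SlBBX6*, *SlBBX8* and *SlBBX9* values and the lowest *SlBBX7* value of its group, together with the highest antenna sum (5326 FPKM, against 1174 and 1187 FPKM). Without it 3 members were likewise called after 5 days, and on leaving out any D-3d library 3 were called after 3 days. Without replicate 3 of D-2d, 2 members were called after 2 days in place of 1. The part of the antenna genes in these changes was not tested.

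After re-watering, 4 members were called against the drought baseline. Against D-0d, 2 group I members were higher and 2 group II members were lower, where 11.7% of all genes tested were called, 5.25% higher and 6.41% lower. *SlBBX3* had 32.1, 47.9 and 46.2 FPKM in D-Recovery, against 6.03, 6.66 and 6.34 FPKM in D-0d (log2 fold change 2.53 ± 0.25, adjusted p = 1.06e-06). *SlBBX6* had 66.4, 80.8 and 76.1 FPKM in D-Recovery, against 40.2, 24.8 and 39.5 FPKM in D-0d (log2 fold change 1.10 ± 0.31, adjusted p = 0.00987). Both were above every other library of the series, although the *SlBBX6* call was lost without replicate 2 of D-0d (log2 fold change 0.88, adjusted p of limma 0.0579). *SlBBX7* had 10.2, 6.66 and 7.06 FPKM in D-Recovery, against 55.6, 60.3 and 62.9 FPKM in D-0d (log2 fold change -2.78 ± 0.16, adjusted p = 1.696e-09). *SlBBX9* had 3.199, 3.599 and 3.06 FPKM in D-Recovery, against 12.5, 12.7 and 13.5 FPKM in D-0d (log2 fold change -1.70 ± 0.16, adjusted p = 6.52e-07). Both were below every other library of the series. The D-Recovery libraries of *SlBBX5* were also all above, and those of *SlBBX1* all below, the D-0d libraries, with log2 fold changes under the threshold (log2 fold change 0.51 ± 0.19, adjusted p = 0.0454 for *SlBBX5*, and log2 fold change -0.53 ± 0.20, adjusted p = 0.0449 for *SlBBX1*).

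Against D-5d, 3 group I members were higher and 2 group II members lower in D-Recovery, where 30% of all genes were called, 17.4% higher and 12.6% lower. The log2 fold changes against D-5d were 4.60 for *SlBBX3*, 4.21 for *SlBBX6*, 1.90 for *SlBBX1*, -2.03 for *SlBBX7* and -2.15 for *SlBBX9*. *SlBBX1* had 8.19, 7.68 and 7.76 FPKM in D-Recovery, against 1.05, 0.959 and 2.34 FPKM in D-5d, and stayed below all D-0d libraries (10.6, 14.8 and 10.4 FPKM). All 22 antenna genes were higher in D-Recovery than in D-5d, while against D-0d 2 of the 22 were lower and 0 were higher. The levels in D-Recovery can be set beside those of Heat-0h as a description. *SlBBX3* averaged 42.1 ± 8.65 FPKM in D-Recovery and 56.7 ± 7.29 FPKM in Heat-0h, *SlBBX7* averaged 7.97 ± 1.93 FPKM and 3.38 ± 0.670 FPKM in these groups, and *SlBBX9* averaged 3.29 ± 0.281 FPKM and 3.73 ± 0.255 FPKM (SD, n = 3). No test was run between the series.

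**Figure D3:**
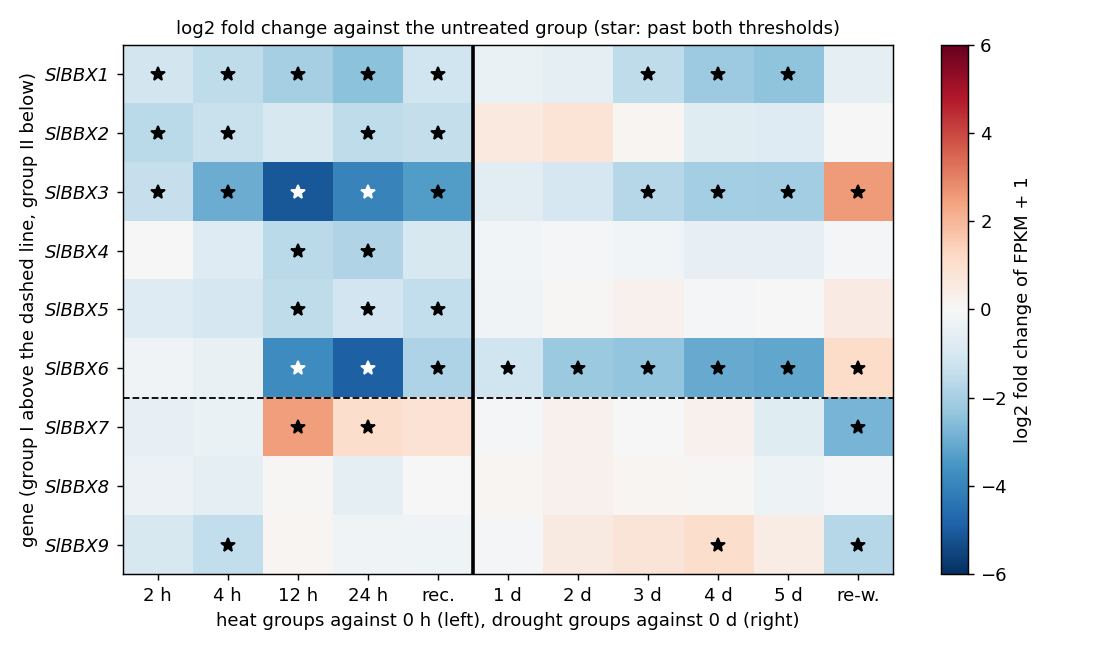
Log2 fold change of FPKM + 1 for *SlBBX1* to *SlBBX9* (rows), heat groups against Heat-0h on the left and drought groups against D-0d on the right. Blue is lower, red is higher and stars mark calls (adjusted p of 0.05 or less and at least 1 in size), which cover all 6 group I members at 24 h of heat and 3 of them at 5 days of drought.

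Over the comparisons with the baseline groups Heat-0h and D-0d, *SlBBX3* was called in 5 of 5 heat and 4 of 6 drought comparisons, *SlBBX6* in 3 and 6, and *SlBBX1* in 5 and 3. *SlBBX2*, *SlBBX4* and *SlBBX5* were called in 4, 2 and 3 heat comparisons and in 0 drought comparisons. *SlBBX7* was called in 2 heat and 1 drought comparison and *SlBBX9* in 1 and 2. The comparisons of a series share the baseline group, so these counts are not independent of each other.

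The ratio of *SlBBX6* to *SlBBX7* within a library does not depend on how libraries are scaled, and it was taken after their values were seen. Its log2 median was 4.19 in Heat-0h, 4.68 in Heat-2h and 4.11 in Heat-4h, then -3.04 in Heat-12h and -3.05 in Heat-24h, and 1.71 in Heat-Recovery. In the drought series it was -0.67 in D-0d, -2.11 in D-1d, -3.50 in D-2d, -3.40 in D-3d, -4.62 in D-4d and -4.28 in D-5d, and 3.43 in D-Recovery. *SlBBX6* thus exceeded *SlBBX7* in all libraries of the first 4 h of heat and after re-watering, and *SlBBX7* exceeded *SlBBX6* in all libraries of 12 h and 24 h of heat and of D-0d to D-5d. In Heat-Recovery 1 of the 3 libraries had a ratio below 0 (-0.19).

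The ratio of *SlBBX3* to *SlBBX9*, also taken after their values were seen, also lay lower late in the drought. Its log2 median was -1.05 in D-0d, -1.55 in D-1d, -3.09 in D-2d, -4.70 in D-3d, -5.26 in D-4d and -5.41 in D-5d, and was 3.73 in D-Recovery. Under heat it was 3.92 in Heat-0h, 3.99 in Heat-2h, 3.24 in Heat-4h, -3.09 in Heat-12h, -0.27 in Heat-24h and 0.87 in Heat-Recovery. Replicate 3 of D-5d had the highest value of its group for both ratios.

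**Figure D4:**
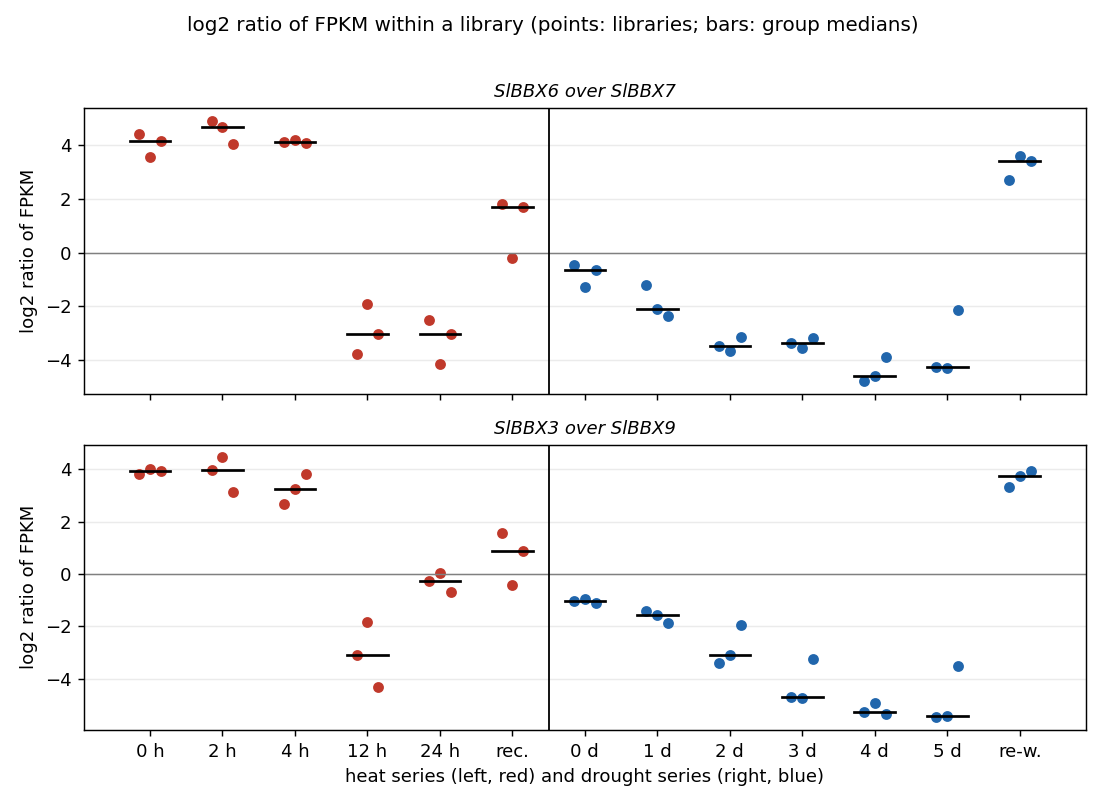
Log2 ratio of FPKM within each library, *SlBBX6* over *SlBBX7* above and *SlBBX3* over *SlBBX9* below, with the heat series in red on the left and the drought series in blue on the right. Points are libraries and bars are medians of 3, and both medians are below 0 at 12 h and 24 h of heat and from D-0d to D-5d, and above 0 after re-watering.

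Across the 13 group means of log2(FPKM + 1), centred within each series, several members had related patterns. *SlBBX3* and *SlBBX6* had a Pearson's r of 0.88, *SlBBX4* and *SlBBX6* of 0.82, *SlBBX1* and *SlBBX6* of 0.80 and *SlBBX3* and *SlBBX5* of 0.80. *SlBBX7* and *SlBBX9* of group II had an r of 0.81. Between the structural groups, r was lowest for *SlBBX3* and *SlBBX7* (-0.79), *SlBBX6* and *SlBBX7* (-0.73) and *SlBBX6* and *SlBBX9* (-0.70). Other pairs between the groups were not negative. *SlBBX8* of group II had an r of 0.60 with *SlBBX2* and 0.41 with *SlBBX1*, and *SlBBX2* had 0.07 with *SlBBX7* and 0.02 with *SlBBX9*. *SlBBX2* had an r of 0.33 with *SlBBX6* and 0.74 with *SlBBX1*. *SlBBX3* and *SlBBX9* had an r of -0.18 over the 6 heat groups and of -0.96 over the 7 drought groups. These values describe points that share libraries, depth and a time series, and no test was made of them.

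Genes of like pattern were sought by the same measure among 18422 genes and are given by ID only, as the files do not pair IDs with names. *SlBBX6* had 75 genes at an r of at least 0.95, led by Solyc03g005770.3 and Solyc07g049300.3 (0.98 each), and *SlBBX3* had 18, led by Solyc11g068530.1 (0.98) and Solyc08g076150.4 (0.97). *SlBBX1* and *SlBBX7* had 2 each, led by Solyc01g091050.4 (0.96) for *SlBBX1* and Solyc11g011990.2 (0.96) for *SlBBX7*. *SlBBX4* had 1, Solyc12g100120.2 (0.96). *SlBBX2*, *SlBBX5*, *SlBBX8* and *SlBBX9* had 0, and their closest genes were Solyc12g008510.2 (0.88), Solyc09g025270.3 (0.946), Solyc09g092260.4 (0.93) and Solyc12g019460.2 (0.91), in the order of the members.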

How the data were processed

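Leaves of tomato M82 were sequenced in 13 groups of 3 libraries. For each series, FPKM of all genes in each library were deposited by the authors in one table. Trimmomatic, TopHat and Cuffdiff appear in the submitters' processing notes. As described in the methods, the reads of the heat series were aligned to the ITAG4.0 genome with a setting that keeps 1 hit per read, so reads shared by near-identical genes may be placed on either copy. Parameters for the drought libraries are not stated there. The tables hold no fragment counts, so no interval that needs a depth is given, and the number of libraries limits precision. The paper describes the heat libraries of a group as biological replicates. For the drought libraries nothing in the sources used says whether they came from separate plants, so their p-values measure only the spread between these libraries. Columns were matched to samples by name, and the 3 control columns of the drought table were used as D-0d without pairs, because their numbers are not tied to the labels.

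A count model could not be used for FPKM. Genes that reached 1 FPKM in 3 or more libraries of a series were kept, 18923 for heat and 19963 for drought. Group means of log2(FPKM + 1) were modelled in R 4.3.3 by limma 3.58.1, using its trended empirical Bayes option, with all groups of a series in a single fit. A fold change on this scale understates that of low genes. Benjamini-Hochberg adjustment ran over all genes of each of the 16 comparisons. The thresholds for a call were 0.05 for the adjusted p and 1 for the size of the log2 fold change. The fit was tested on simulated data. Alternatives were a pseudocount of 0.1, no filter, median-ratio scaling, only the groups compared, the replicate number as a block, no minimum fold, each library left out in turn, and replicate 3 of Heat-12h and of Heat-24h left out together.

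All 10 members were described in order of their structural group, with 22 antenna genes, HSP17.6 and NCED3 from the study's lists, and the 2 genes of most similar pattern per member. The members, lists and tests were chosen with earlier results of these data known. A list of 17 clock and photoperiod IDs was not run, since 0 matched the RefSeq table, and *SlBBX31* and HSP90 are not described here.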

Additional observations from a re-analysis of the deposited data

Results flagged for a closer look

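For 4 members the change after recovery had opposite signs in the heat and drought series. Every recovery library lay on one side of the baseline, Heat-0h, under heat and on the other side of the baseline, D-0d, under drought. The share of all genes with such a pattern is not given here, so this count is no result about the members as a set. The difference between the series was not tested. The baselines themselves were unlike, and D-0d was taken when the pots had already lost part of their water. *SlBBX3* had a log2 fold change of -3.33 in Heat-Recovery against Heat-0h and of 2.53 in D-Recovery against D-0d. Its baselines averaged 56.7 FPKM in Heat-0h and 6.34 FPKM in D-0d. After recovery it averaged 4.93 FPKM under heat and 42.1 FPKM under drought. *SlBBX6* had -1.85 in Heat-Recovery and 1.10 in D-Recovery, and *SlBBX5* had -1.46 and 0.51, the second below the fold threshold. *SlBBX7* ran the other way, with 0.85 in Heat-Recovery, below the fold threshold, and -2.78 in D-Recovery. Its means after recovery were close, at 7.08 FPKM under heat and 7.97 FPKM under drought. Its baselines averaged 3.38 FPKM in Heat-0h and 59.6 FPKM in D-0d. *SlBBX7* also differed at the end of the treatments, with 1.06 in Heat-24h against Heat-0h and -0.75, below the fold threshold, in D-5d against D-0d.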

How the results depend on the processing

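In counts of members called, the following alternatives differed by more than 1.5 times. For Heat-2h against Heat-0h (3 called), 0 were called with a pseudocount of 0.1, 1 with no filter, and 0 to 1 with a library left out. For Heat-4h against Heat-2h (1 called), 0 were called with a pseudocount of 0.1 or only the groups compared, and 0 to 1 with a library left out. For Heat-12h against Heat-4h (4 called), 2 were called with only the groups compared. For Heat-24h against Heat-12h (3 called), 1 was called with median-ratio scaling or only the groups compared. For Heat-Recovery against Heat-0h (5 called), 3 were called with median-ratio scaling, and 3 to 5 with a library left out. For D-1d (1 called), 0 to 1 were called with a library left out, and for D-2d (1 called), 2 were called with a pseudocount of 0.1 or median-ratio scaling, 1 to 2 with a library left out, and 5 with no minimum fold. With no minimum fold, 8 were called for D-5d (3 otherwise) and 8 for D-Recovery against D-5d (5 otherwise). Counts of the other comparisons moved by less. Causes were not tested.

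Replicate numbers did not pair the libraries: 3 of 30 same-numbered pairs had a correlation of deviations over 0.1 (range -0.22 to 0.26). With the replicate block, 1 member was called for Heat-2h against Heat-0h, *SlBBX3*, and 3 for Heat-4h against Heat-0h. The block changed no other member call that is given in the report. No block was possible against D-0d, whose columns carry no tied numbers.

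Of the 78 member values that passed the threshold of the adjusted p, 0 reversed under an alternative. They were picked by that threshold, which makes a reversal unlikely, so this is no test of how stable the values are. The other 66 member values, some of them named in the report, were less stable. Of these, 27 changed sign under an alternative, 17 with median-ratio scaling, and 3 passed both thresholds under an alternative. Over all genes tested, counts moved by more than 1.5 times with no minimum fold (D-1d 8803 for 3007, D-2d 11868, D-3d 12832, D-4d 13389, D-5d 13398, D-Recovery against D-0d 7084 and against D-5d 12720, Heat-4h 5011, Heat-Recovery 7230, Heat-12h against Heat-4h 2109). They also moved with median-ratio scaling (Heat-4h 1737 for 2936, Heat-Recovery 2582 for 4649), with only the groups compared (Heat-12h against Heat-4h 263 for 1313, Heat-24h against Heat-12h 1348 for 4119, Heat-4h against Heat-2h 170 for 326) and, for Heat-4h against Heat-2h, with replicate 3 of Heat-12h and of Heat-24h left out (641). With a library left out, the lowest counts were 531 for Heat-2h (1052 otherwise), 1827 for Heat-4h, 808 for Heat-12h against Heat-4h, 2647 for Heat-24h against Heat-12h, and 92 for Heat-4h against Heat-2h (highest 514).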
